A study of Mus musculus with 27 samples.

Results

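The genes described here are 8 dual-specificity phosphatases, Dusp1, Dusp2, Dusp3, Dusp4, Dusp5, Dusp6, Dusp7 and Dusp16, and Errfi1. They were picked by name from the gene column of the count table, so 9 of its 29872 genes are covered, and all 9 were among the 14589 genes with enough counts to be tested. The table holds 27 RNA-seq libraries of polyadenylated RNA from mouse macrophages in culture, in 8 groups of genotype and treatment. Levels are in CPM, counts relative to the scaled library size, unless a sentence says otherwise.

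Mitogen-activated protein kinases (MAPKs) such as ERK, JNK and p38 are switched on by phosphorylation of a threonine and a tyrosine in the activation loop, and dual-specificity phosphatases remove both phosphates. Many of these phosphatases are themselves transcribed in response to the kinases they switch off, which makes them feedback inhibitors. In macrophages Dusp1 is also known as a glucocorticoid-induced gene whose product limits p38 and JNK signalling and so the output of inflammatory cytokines. Errfi1 encodes an adaptor that binds and blocks the kinase domain of the epidermal growth factor receptor family, upstream of ERK.

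In the GENCODE vM21 annotation of GRCm38 the 9 genes lie on 9 chromosomes. Of the nuclear phosphatases, Dusp1 (ENSMUSG00000024190) is at chr17:26505590-26562128 on the minus strand, Dusp2 (ENSMUSG00000027368) at chr2:127336159-127338376 on the plus strand, Dusp4 (ENSMUSG00000031530) at chr8:34807297-34819894 on the plus strand and Dusp5 (ENSMUSG00000034765) at chr19:53529109-53542431 on the plus strand. The ERK phosphatases of the cytoplasm are Dusp6 (ENSMUSG00000019960) at chr10:99263231-99267489 on the plus strand and Dusp7 (ENSMUSG00000053716) at chr9:106368632-106375724 on the plus strand. The other members are Dusp16 (ENSMUSG00000030203) at chr6:134715468-134792625 on the minus strand, Dusp3 (ENSMUSG00000003518) at chr11:101971143-101987013 on the minus strand and Errfi1 (ENSMUSG00000028967) at chr4:150853919-150868892 on the plus strand. The table holds 1 count per gene and library, so isoforms are not separated.

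Both genotypes came from male mice aged 8 to 10 weeks, and marrow was cultured for 5 days with 10% L-cell conditioned medium and 20% bovine serum. The wild-type samples carry the genotype C57BL/6, LysM-Cre+/+ ; GRIP1wt/wt in their characteristics, whereas their titles call them BL6, so whether the controls also carried Cre is not settled by the labels. The knockout samples are C57BL/6, LysM-Cre+/+; GRIP1fl/fl: Cre made from the Lyz2 (LysM) locus, active in myeloid cells, removes a floxed part of Ncoa2, the gene of the glucocorticoid receptor coregulator GRIP1. Cells received vehicle or, for 24 h, 10 ng/ml interleukin 4 (IL4), 500 nM corticosterone or 100 nM dexamethasone. The titles of the vehicle samples give no time. There were 3 libraries in each wild-type group, 3 in the knockout IL4 group (numbered 1, 2 and 4) and 4 in each other knockout group. Nothing in the labels ties each library to its own animal, and the p-values therefore measure only the spread between libraries, which may be technical. They also do not say whether both genotypes were cultured together, and genotype and any such batch cannot be told apart.

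Total counts ran from 20162729 to 48023102 per library. Ncoa2 was at 55.7 to 93.4 CPM in wild-type libraries and 16.1 to 26.004 CPM in knockout libraries, counted over the whole gene and not only its floxed part. All 7 macrophage markers were above 1 CPM in every group, with a summed level of 5227 to 6605 CPM. The 5 stromal cell markers summed to 149.5 to 781 CPM in wild-type libraries and 10.2 to 41.9 CPM in knockout libraries, and the 7 neutrophil markers to 42.7 to 292 and 5.66 to 16.2 CPM. The wild-type libraries numbered 1 held the most stromal RNA (629.5 to 781 CPM), those numbered 2 less (246 to 330.5 CPM) and those numbered 3 the least (149.5 to 204 CPM). In addition, 4 libraries that had not received IL4 had high levels of the IL4 target Arg1 (67.1 to 117 CPM): knockout vehicle 2 and 3, wild-type dexamethasone 1 and knockout dexamethasone 2. Knockout dexamethasone 4, at 12.2 CPM of Arg1, was not counted among them. Mrc1, which IL4 also raised, was at 507 to 589 CPM in wild-type vehicle libraries and 1058 to 1933 CPM in knockout vehicle libraries. Knockout vehicle 1 and 4, low in Arg1, were at 1058 and 1247 CPM of Mrc1. Leaving out the 4 libraries thus does not level Mrc1 between the genotypes. Calls of members that change without the 4 libraries high in Arg1 are given with and without them.

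The promoters of Dusp1 and Errfi1 are shown because both genes were lower in the knockout under several treatments and because they were the only members whose promoter window held a cyclic AMP response element, the site of CREB-family factors. Each sequence is the 250 bases before the RefSeq transcription start, 5′ to 3′ on the gene's strand, with motif matches in capitals.
Dusp1 promoter: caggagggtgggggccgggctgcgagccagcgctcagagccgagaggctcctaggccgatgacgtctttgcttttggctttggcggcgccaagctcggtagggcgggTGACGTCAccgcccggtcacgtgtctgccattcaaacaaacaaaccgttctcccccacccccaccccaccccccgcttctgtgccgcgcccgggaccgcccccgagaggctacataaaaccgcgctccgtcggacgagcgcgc
Errfi1 promoter: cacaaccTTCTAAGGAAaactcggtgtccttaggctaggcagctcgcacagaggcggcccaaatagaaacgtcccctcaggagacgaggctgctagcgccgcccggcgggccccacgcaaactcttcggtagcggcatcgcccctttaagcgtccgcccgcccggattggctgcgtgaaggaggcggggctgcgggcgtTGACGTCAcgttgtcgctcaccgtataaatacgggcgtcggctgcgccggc
The first lies at chr17:26508473-26508722 on the minus strand and the second at chr4:150854820-150855069 on the plus strand of GRCm38.p6. The palindromic element TGACGTCA starts at position -143 in Dusp1 and at position -51 in Errfi1, counted from the transcription start. The Errfi1 window also held 1 STAT-type pair, TTC and GAA with 4 bases between, at position -243. RefSeq windows of 300 bases (250 before and 50 after the start) were found for 8 of the 9 members, 9 windows in all, since Errfi1 has a second window, at chr4:150853546-150853845, which held neither of these motifs. Of 32851 such windows of all genes, 1.79% held TGACGTCA and 6.95% held that STAT-type pair on either strand. None of the 9 windows held the glucocorticoid receptor palindrome (AGAACA, 3 bases, TGTTCT; 0.00913% of all windows), its single arm TGTTCT (19.0%), the AP-1 site TGAGTCA (5.20%) or a STAT-type pair with 3 bases between (8.30%). A palindrome match also holds the arm. These matches describe letters in short windows and were not tested as binding sites.

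Per kilobase of exon, levels in wild-type vehicle cells spanned a range from Dusp3 at 54.9 ± 2.46 CPM per kb (SD, n = 3) to Dusp16 at 2.47 ± 0.34 CPM per kb (SD, n = 3). Dusp6 lay near Dusp3 at 51.5 CPM per kb, followed by Dusp4 at 36.3, Dusp7 at 35.4 and Dusp1 at 23.1 CPM per kb. Errfi1 (9.16 CPM per kb), Dusp5 (6.13) and Dusp2 (2.63) were lower. The cytoplasmic ERK phosphatases, the small phosphatase Dusp3 and the nuclear phosphatase Dusp4 were thus the more abundant members at rest. The nuclear phosphatase Dusp2 and the JNK and p38 phosphatase Dusp16 were the least abundant.

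**Figure D1:**
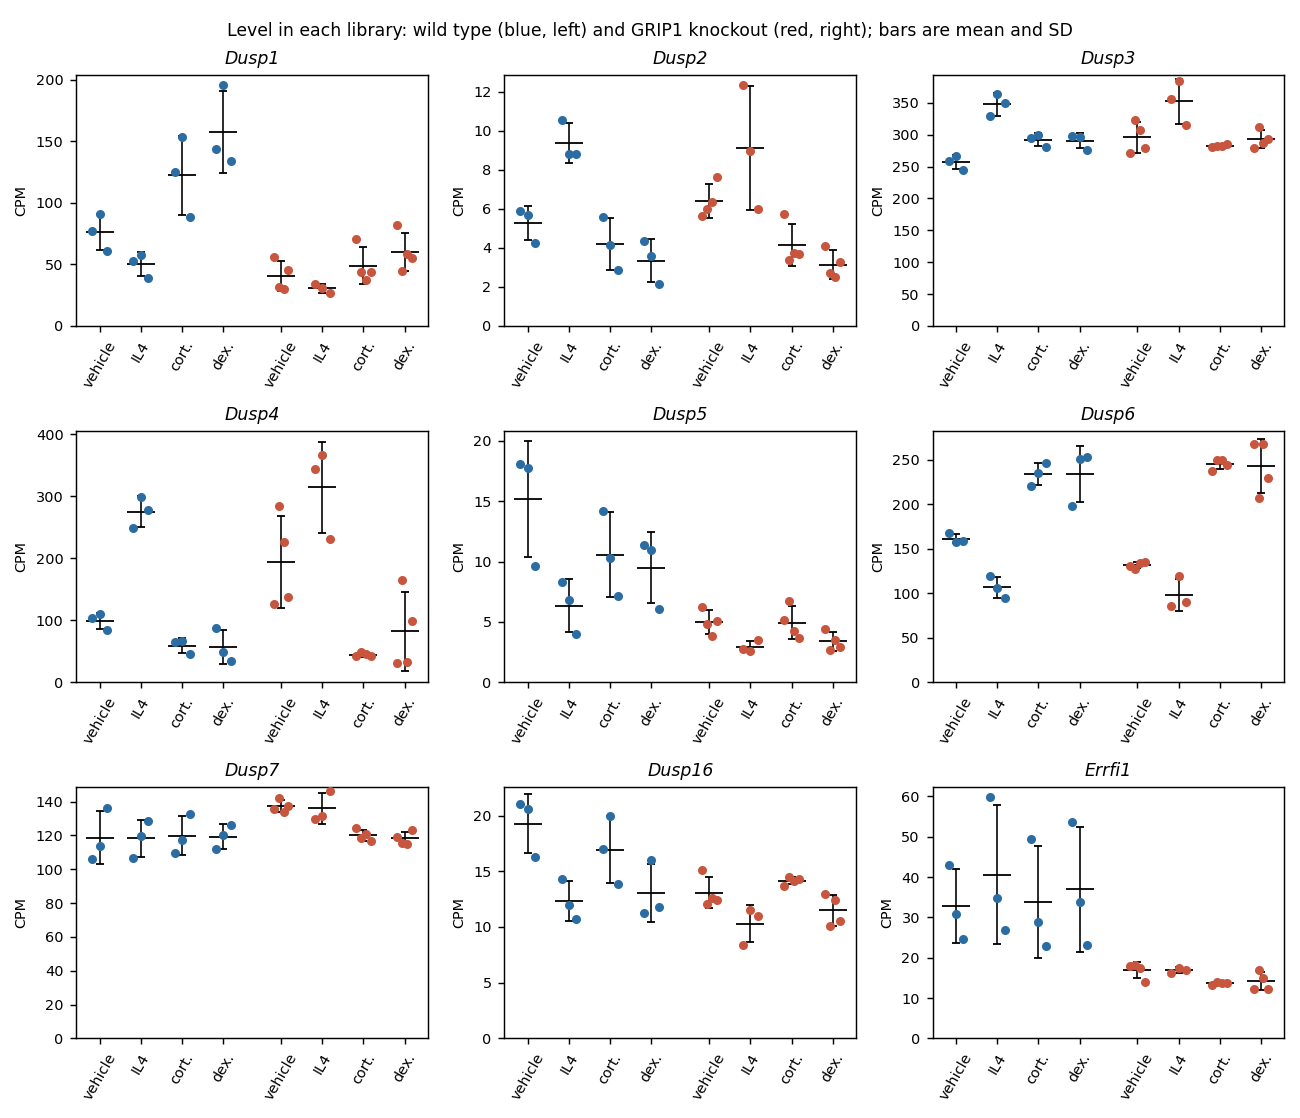
Level of each of the 9 genes in every library, in CPM on axes that start at 0, with wild-type groups in blue on the left and knockout groups in red on the right of each panel; bars are the group mean and SD. Dusp6 rose with both glucocorticoids and fell with IL4 in both genotypes, and Errfi1 was lower in all 15 knockout libraries than in any of the 12 wild-type libraries.

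IL4 moved the most members in wild-type cells. It raised 3 of 9 (background: 14.8% of all tested genes were called higher) and lowered 3 of 9 (background 15.3%), with a median log2 fold change over the members of -0.01. Corticosterone in wild-type cells raised 1 member (background 3.48%) and lowered none (background 2.46%), where DESeq2 also called none lower and 3 members had an unadjusted p under 0.05 in either direction. Dexamethasone in wild-type cells raised 2 (background 7.66%) and lowered 1 (background 6.03%). In knockout cells IL4 raised 1 (background 14.5%) and lowered 1 (background 12.0%), corticosterone raised 1 (background 6.01%) and lowered 1 (background 6.07%), and dexamethasone raised 1 (background 9.10%) and lowered 3 (background 9.29%). A gene was called at a Benjamini-Hochberg adjusted p under 0.05 in edgeR's quasi-likelihood test over all 14589 genes. The median log2 fold change over all tested genes was between -0.01 and 0.02 in each of the 15 comparisons.

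Dusp1 encodes a nuclear phosphatase with a preference for p38 and JNK. In wild-type cells it was at 77.3, 90.7 and 61.1 CPM with vehicle, 125, 153 and 88.7 CPM with corticosterone and 144, 196 and 134 CPM with dexamethasone, in the order of the replicate numbers 1, 2 and 3. All dexamethasone libraries lay above all vehicle libraries, while the lowest corticosterone library lay below the highest vehicle library. Dusp1 rose with dexamethasone by a log2 fold change of 1.05 ± 0.27 (SE; adjusted p = 0.0108), a 2.06-fold rise. The call was lost without wild-type vehicle 3 (log2 0.91, adjusted p = 0.0651), without dexamethasone 2 (0.85, adjusted p = 0.0733) and without the wild-type libraries numbered 1 (1.12, adjusted p = 0.0699); over its 14 alternatives the adjusted p had a maximum of 0.0733. With corticosterone the log2 fold change was 0.68 ± 0.27 (adjusted p = 0.177) without a call, and it was called with the replicate number as a block (0.67, adjusted p = 0.000892; up to 0.571 over the other alternatives), each numbered corticosterone library being higher than its vehicle counterpart. IL4 libraries, at 52.9, 58.0 and 39.3 CPM, were all below vehicle, with -0.61 ± 0.27 (adjusted p = 0.0984) and, in the blocked fit, -0.61 (adjusted p = 0.000592; up to 0.317 over the other alternatives).

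In knockout cells Dusp1 was at 56.0, 31.7, 30.2 and 45.2 CPM with vehicle, 34.2, 30.5 and 27.1 CPM with IL4, 71.0, 44.0, 37.1 and 43.6 CPM with corticosterone and 81.8, 44.3, 58.6 and 55.3 CPM with dexamethasone. The treated groups all overlapped vehicle, and none of the 3 treatments passed the test. The log2 fold changes were -0.41 ± 0.26 with IL4, 0.27 ± 0.24 with corticosterone and 0.56 ± 0.24 (adjusted p = 0.113) with dexamethasone. The dexamethasone value passed without knockout vehicle 1 (0.75, adjusted p = 0.0418), and the IL4 value passed in the blocked fit (-0.46, adjusted p = 0.00771); over the alternatives of these values the adjusted p reached 0.505 and 0.610. Dusp1 overlaps exons of Ergic1 on the other strand, and whether reads were counted by strand is not stated in the labels. Ergic1 itself moved by 0.08 ± 0.08 with dexamethasone in wild-type cells (adjusted p = 0.58). It was called lower with dexamethasone in the knockout (-0.20 ± 0.07, adjusted p = 0.0469). With IL4 it was called higher in wild type (0.23 ± 0.08, adjusted p = 0.0264) and in the knockout (0.31 ± 0.07, adjusted p = 0.00283). Corticosterone gave no call of Ergic1 in either genotype.

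Dusp2, a nuclear phosphatase best known from leukocytes, was a low-level gene that moved up with IL4. It was at 5.87, 5.67 and 4.27 CPM in wild-type vehicle libraries and 10.5, 8.80 and 8.78 CPM with IL4, with no overlap, a log2 fold change of 0.83 ± 0.26 (adjusted p = 0.0187). The rise was not called without wild-type vehicle 3 (0.70, adjusted p = 0.0948), IL4 1 (0.75, adjusted p = 0.0677) or the libraries numbered 1 (0.82, adjusted p = 0.0513), 0.0948 being the maximum over its 13 alternatives. Corticosterone (5.56, 4.13 and 2.88 CPM) and dexamethasone (4.33, 3.57 and 2.14 CPM) groups overlapped vehicle in wild-type cells. Their log2 fold changes were -0.33 ± 0.27 and -0.67 ± 0.28 (adjusted p = 0.126), the second called in the blocked fit (-0.68, adjusted p = 0.0241; up to 0.465 over the other alternatives). In knockout cells the vehicle libraries were at 5.62, 5.98, 6.37 and 7.64 CPM and the dexamethasone libraries at 4.11, 2.697, 2.50 and 3.26 CPM, all lower. Dusp2 thus fell with dexamethasone by 1.03 ± 0.24 on the log2 scale (adjusted p = 0.00303), a call kept in all 15 alternatives. Corticosterone libraries of the knockout (5.74, 3.39, 3.72 and 3.68 CPM) overlapped vehicle through 1 library, with -0.63 ± 0.23 (adjusted p = 0.082). That value was called in the blocked fit (-0.67, adjusted p = 0.00733), in a fit of only the groups compared (-0.64, adjusted p = 0.0337) and without corticosterone 1 (-0.83, adjusted p = 0.0315), and reached 0.199 in other alternatives. Knockout IL4 libraries, at 12.4, 8.95 and 5.99 CPM, were spread widely around a log2 fold change of 0.51 ± 0.24 (adjusted p = 0.126; 0.74 and 0.0406 without knockout IL4 4, and up to 0.578 over its alternatives).

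Dusp4, a nuclear phosphatase of ERK and JNK, had the largest ratio of highest to lowest library among the members, from 31.2 to 367 CPM. In wild-type cells IL4 brought it from 104, 109 and 84.8 CPM to 248, 298 and 278 CPM, with a wide gap between the groups. The log2 fold change was 1.47 ± 0.47 (adjusted p = 0.0209), a 2.76-fold rise. Without wild-type vehicle 3 (1.36, adjusted p = 0.0759), without IL4 2 (1.42, adjusted p = 0.0542), without the libraries numbered 1 (1.57, adjusted p = 0.0727) or with no filter on low counts (1.46, adjusted p = 0.054) the call was lost, 0.0759 being the maximum over 13 alternatives. Corticosterone libraries (64.4, 67.1 and 45.5 CPM) were all below vehicle at -0.75 ± 0.47 (adjusted p = 0.488). Dexamethasone libraries were at 86.7, 48.6 and 33.8 CPM, of which the first, one of those high in Arg1, overlapped vehicle. The dexamethasone value was -0.82 ± 0.47 (adjusted p = 0.302) with all libraries and -1.28 (adjusted p = 0.0317; up to 0.627 over its alternatives) without the 4 libraries high in Arg1.

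In knockout vehicle cells Dusp4 was at 127, 284, 226 and 138 CPM, and the 2 higher values came from the vehicle libraries that were high in Arg1. Corticosterone libraries were at 41.6, 49.1, 46.0 and 41.5 CPM, all below vehicle. Dusp4 fell with corticosterone by 2.12 ± 0.42 on the log2 scale (adjusted p = 0.00155) in the knockout, and by 1.59 (adjusted p = 0.00616) without the libraries high in Arg1, which also removes those 2 vehicle libraries. The fall was called in all 15 alternatives, with adjusted p up to 0.00713. Dexamethasone libraries of the knockout were at 31.2, 166, 32.6 and 98.5 CPM, of which the library numbered 2, high in Arg1, overlapped vehicle. Their log2 fold change was -1.24 ± 0.41 (adjusted p = 0.0367), and -1.29 (adjusted p = 0.0233) without the libraries high in Arg1. It was not called when knockout vehicle 2 (-1.004, adjusted p = 0.121) or 3 (-1.15, adjusted p = 0.0868) was left out, nor without knockout dexamethasone 1 (-0.98, adjusted p = 0.107), 3 (-0.98, adjusted p = 0.11) or 4 (-1.34, adjusted p = 0.0527), and reached 0.221 with only the groups compared. With no filter on low counts the dexamethasone call was lost too (-1.23, adjusted p = 0.0946). IL4 libraries of the knockout, at 345, 367 and 231 CPM, overlapped vehicle at 0.70 ± 0.43 (adjusted p = 0.247), and passed at 1.23 (adjusted p = 0.0205; up to 0.475 over its alternatives) without the libraries high in Arg1.

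Dusp5 encodes a nuclear phosphatase specific for ERK. It was at 18.1, 17.7 and 9.60 CPM in wild-type vehicle libraries and 8.29, 6.79 and 3.97 CPM with IL4, all lower. Dusp5 fell with IL4 by 1.26 ± 0.30 on the log2 scale (adjusted p = 0.00239), and the call was kept in all 13 alternatives. With corticosterone it was at 14.2, 10.3 and 7.14 CPM and with dexamethasone at 11.4, 11.0 and 6.10 CPM, groups that overlapped vehicle. These values were -0.52 ± 0.29 (adjusted p = 0.413) and -0.68 ± 0.30 (adjusted p = 0.147). Each was called in the blocked fit (-0.52, adjusted p = 0.0267, and -0.67, adjusted p = 0.00293) and reached 0.784 and 0.481 over the other alternatives. In knockout cells the level was lower from the start, at 6.20, 4.83, 3.83 and 5.11 CPM with vehicle, 2.75, 2.62 and 3.48 CPM with IL4, 5.13, 6.73, 4.21 and 3.68 CPM with corticosterone and 4.39, 2.65, 3.53 and 2.92 CPM with dexamethasone. All IL4 libraries lay below vehicle there, at -0.75 ± 0.31 (adjusted p = 0.0756), called in the blocked fit (-0.81, adjusted p = 0.00184), with only the groups compared (-0.76, adjusted p = 0.0341) and by DESeq2 (-0.76, adjusted p = 0.0457), and up to 0.178 otherwise. The corticosterone and dexamethasone values, -0.01 ± 0.27 and -0.56 ± 0.28, did not pass.

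Dusp6, the cytoplasmic phosphatase of ERK and a standard readout of ERK output, was the member that moved in all 6 treatment comparisons. Wild-type libraries were at 167, 158 and 159 CPM with vehicle, 119, 105 and 94.8 CPM with IL4, 221, 234 and 246 CPM with corticosterone and 197, 251 and 253 CPM with dexamethasone. The IL4 libraries all lay below vehicle, and the libraries of both glucocorticoids all lay above it. Dusp6 fell with IL4 by 0.60 ± 0.11 on the log2 scale (adjusted p = 0.000176). It rose with corticosterone by 0.54 ± 0.11 (adjusted p = 0.00324) and with dexamethasone by 0.54 ± 0.11 (adjusted p = 0.00139), each a 1.45-fold rise. The same order held in knockout cells, at 130.2, 127, 134 and 135 CPM with vehicle, 85.4, 119 and 89.7 CPM with IL4, 237, 249.8, 250.04 and 244 CPM with corticosterone and 268, 207, 267 and 229.6 CPM with dexamethasone. No treated group overlapped vehicle. IL4 lowered it by a log2 fold change of -0.43 ± 0.10 (adjusted p = 0.00401), corticosterone raised it by 0.90 ± 0.10 (adjusted p = 5.59e-07) and dexamethasone by 0.88 ± 0.10 (adjusted p = 2.96e-07). Each of these 6 calls was kept in every alternative run, with adjusted p up to 0.0356 for IL4 in the knockout.

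Dusp7, a second cytoplasmic ERK phosphatase, moved little with treatment and differed between replicate numbers in wild type. Wild-type libraries were at 106, 113 and 136 CPM with vehicle, and all other wild-type libraries lay between 107 and 132 CPM. Wild-type libraries numbered 1, 2 and 3 were at 106 to 112, 113 to 120.0 and 126 to 136 CPM, without overlap. That is the reverse of the order of the stromal and neutrophil marker sums, whose part in the level of Dusp7 was not tested. The largest of the wild-type treatment values was 0.01 in size, with standard errors of 0.08 and 95% intervals that all lay between -0.18 and 0.18. In the knockout, vehicle libraries were at 135, 142, 134 and 137 CPM and dexamethasone libraries at 119, 116, 115 and 123 CPM, all lower. Dusp7 fell with dexamethasone by 0.21 ± 0.07 on the log2 scale (adjusted p = 0.0357), and 7 of the 8 omissions of a single library ended the call, with log2 fold changes between -0.23 and -0.20 (without vehicle 1, 2, 3 or 4 the values were -0.22, -0.20, -0.23 and -0.21, and without dexamethasone 1, 2 or 3 they were -0.22, -0.21 and -0.20). Without the libraries high in Arg1 it was not called either (-0.20, adjusted p = 0.192, the maximum over its 15 alternatives). With no filter on low counts the call was lost as well (-0.21, adjusted p = 0.0811). Corticosterone libraries (124, 119, 121 and 117 CPM) were also all below vehicle, at -0.19 ± 0.07 (adjusted p = 0.0844), called in the blocked fit (-0.19, adjusted p = 0.00334), with only the groups compared (-0.20, adjusted p = 0.0191) and by DESeq2 (-0.20, adjusted p = 0.044), and up to 0.255 otherwise. IL4 libraries, at 129.8, 132 and 147 CPM, overlapped vehicle at -0.01 ± 0.08.

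Dusp16 encodes a phosphatase of JNK and p38. In wild-type cells it was at 21.0, 20.6 and 16.3 CPM with vehicle and 14.3, 12.0 and 10.7 CPM with IL4, without overlap. Dusp16 fell with IL4 by 0.65 ± 0.15 on the log2 scale (adjusted p = 0.00195), and the call was kept in all 13 alternatives. Dexamethasone libraries, at 11.3, 15.999 and 11.8 CPM, also all lay below vehicle, at -0.56 ± 0.15 (adjusted p = 0.0135). That call was lost without vehicle 1 (-0.50, adjusted p = 0.0623), vehicle 2 (-0.51, adjusted p = 0.0574), dexamethasone 1 (-0.48, adjusted p = 0.0627) or dexamethasone 3 (-0.50, adjusted p = 0.0732) and without the libraries high in Arg1 (-0.48, adjusted p = 0.0673), and reached 0.187 without the libraries numbered 1 (-0.41). The dexamethasone call was also lost with only the groups compared (-0.56, adjusted p = 0.0688). Corticosterone libraries (17.0, 19.9 and 13.9 CPM) overlapped vehicle at -0.19 ± 0.15. In the knockout, libraries were at 15.1, 12.1, 12.6 and 12.5 CPM with vehicle, 8.38, 11.5 and 11.0 CPM with IL4, 13.7, 14.5, 14.1 and 14.3 CPM with corticosterone and 12.9, 10.1, 12.4 and 10.5 CPM with dexamethasone. The IL4 libraries were all lower than vehicle at -0.35 ± 0.15 (adjusted p = 0.0811), called in the blocked fit (-0.34, adjusted p = 0.0408) and without knockout IL4 2 (-0.46, adjusted p = 0.0436), and up to 0.335 otherwise. The corticosterone and dexamethasone values were 0.12 ± 0.13 and -0.18 ± 0.13 and did not pass.

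Dusp3 encodes a small phosphatase that lacks the kinase-docking domain of the others and acts on ERK and JNK. Its range was narrow, and IL4 was the treatment that moved it. Wild-type libraries were at 259.6, 267 and 245 CPM with vehicle and 329, 364 and 349.8 CPM with IL4, with no overlap and a log2 fold change of 0.44 ± 0.07 (adjusted p = 3.32e-05) that was called in all 13 alternatives. Corticosterone (295, 300.1 and 281 CPM) and dexamethasone (298, 296 and 277 CPM) libraries also all lay above vehicle, at 0.18 ± 0.07 (adjusted p = 0.149) and 0.18 ± 0.07 (adjusted p = 0.105). Each passed in the blocked fit (0.18, adjusted p = 0.036, and 0.18, adjusted p = 0.0278) and reached 0.434 and 0.338 over the other alternatives. In the knockout, vehicle libraries were at 271, 323, 308 and 280.0 CPM and IL4 libraries at 357, 385 and 315 CPM, which overlapped through the IL4 library numbered 4. Dusp3 rose there by 0.25 ± 0.06 (adjusted p = 0.00561), a call lost without knockout IL4 2 (0.17, adjusted p = 0.0851) and with only the groups compared (0.24, adjusted p = 0.142, the maximum over its 14 alternatives). Corticosterone (281 to 286 CPM) and dexamethasone (279.8 to 312 CPM) libraries lay within the range of knockout vehicle.

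Errfi1, the receptor tyrosine kinase inhibitor, was not called with any treatment in wild-type cells and differed between replicate numbers. It was at 42.9, 30.9 and 24.7 CPM with vehicle, 59.97, 34.8 and 26.95 CPM with IL4, 49.4, 28.9 and 22.9 CPM with corticosterone and 53.6, 33.9 and 23.3 CPM with dexamethasone. In every treatment the library numbered 1 was the highest and that numbered 3 the lowest, as was the summed level of the 5 stromal markers (629.5 to 781, 246 to 330.5 and 149.5 to 204 CPM by number) and that of the 7 neutrophil markers (168 to 292, 59.7 to 112 and 42.7 to 76.1 CPM). The part of either cell type's RNA in the level of Errfi1 was not tested. In a bulk library, fewer cells of a type and less RNA per cell cannot be told apart. The log2 fold changes were 0.31 ± 0.29 with IL4, 0.04 ± 0.29 with corticosterone and 0.17 ± 0.29 with dexamethasone, and none passed. In the blocked fit the IL4 value passed (0.26, adjusted p = 0.0193; up to 0.883 over the other alternatives), each IL4 library being higher than the vehicle library of its number. In the knockout the level was even, at 17.97, 18.3, 17.5 and 14.0 CPM with vehicle, 16.1, 17.5 and 17.0 CPM with IL4, 13.3, 14.0, 13.8 and 13.6 CPM with corticosterone and 12.3, 16.9, 14.9 and 12.3 CPM with dexamethasone. All corticosterone libraries lay below vehicle there, at -0.31 ± 0.26 (adjusted p = 0.555), called in the blocked fit (-0.30, adjusted p = 0.0105) and with only the groups compared (-0.32, adjusted p = 0.0449), and up to 0.816 otherwise. The IL4 and dexamethasone values were -0.01 ± 0.28 and -0.26 ± 0.26.

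**Figure D2:**
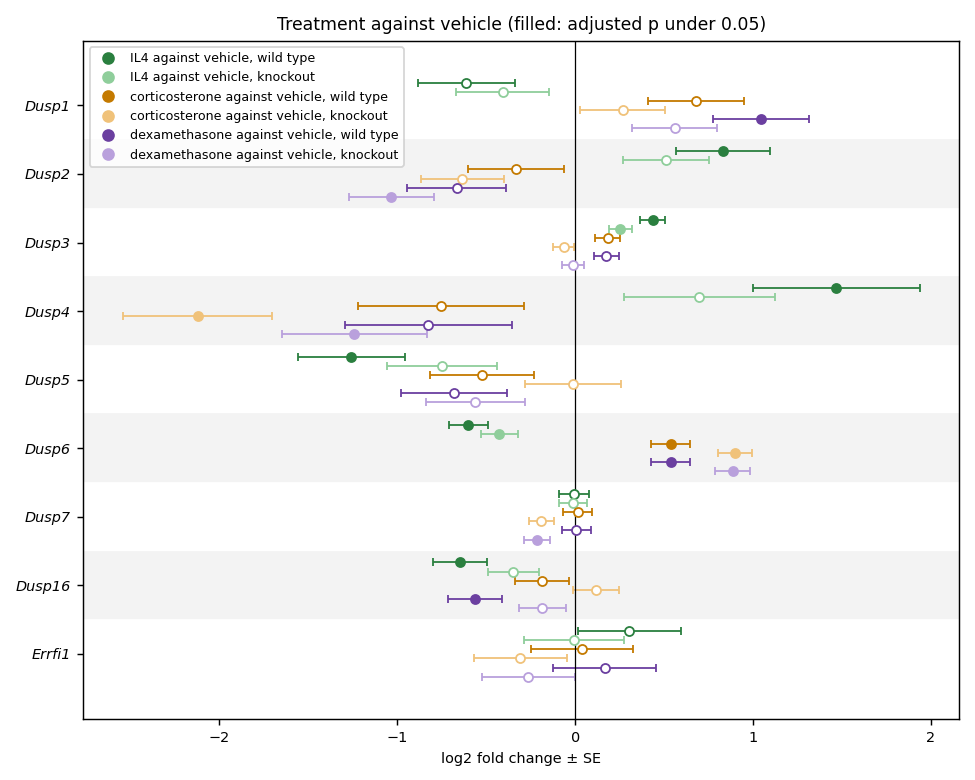
Log2 fold change against vehicle with its SE for each gene in the 6 treatment comparisons, dark for wild type and light for knockout, filled where the adjusted p was under 0.05. Dusp6 is filled in all 6 comparisons, below 0 for IL4 and above 0 for both glucocorticoids.

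The knockout was compared with wild type under each treatment. With vehicle, 1 of 9 members was higher (background 8.47%) and 5 were lower (background 10.3%), with a median log2 fold change over the members of -0.29. With IL4, none was higher (background 5.76%) and 2 were lower (background 6.59%). With corticosterone, none was higher (background 5.46%) and 3 were lower (background 8.95%), and with dexamethasone none was higher (background 6.70%) and 3 were lower (background 10.5%). At an unadjusted p under 0.05, 8, 4, 3 and 3 members differed in either direction under vehicle, IL4, corticosterone and dexamethasone, and DESeq2 also called 0 members higher under the last 3. The members' median was -0.12 with IL4, -0.26 with corticosterone and -0.08 with dexamethasone. Dusp1, Dusp5 and Errfi1 made up the calls under both glucocorticoids.

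Errfi1 was lower in the knockout under every treatment, with no overlap between any wild-type library (22.9 to 59.97 CPM) and any knockout library (12.3 to 18.3 CPM). The log2 fold change was -0.95 ± 0.27 with vehicle (adjusted p = 0.0156), -1.26 ± 0.30 with IL4 (adjusted p = 0.00752), -1.30 ± 0.28 with corticosterone (adjusted p = 0.00222) and -1.38 ± 0.28 with dexamethasone (adjusted p = 0.00118). Without the wild-type libraries numbered 1, which were the highest in stromal markers, Errfi1 remained called at -0.72 (adjusted p = 0.00224), -0.87 (adjusted p = 0.00117), -0.92 (adjusted p = 0.00023) and -1.02 (adjusted p = 6.76e-05). With 1 library left out, the vehicle call was lost without wild-type vehicle 1 (-0.71, adjusted p = 0.129) and the IL4 call without wild-type IL4 1 (-0.90, adjusted p = 0.0844), each the maximum over its alternatives. The other 2 calls held in all 14 and all 15 alternatives. The remaining wild-type libraries still held 149.5 to 330.5 CPM of stromal markers against 10.2 to 41.9 CPM in the knockout, and 42.7 to 112 CPM of neutrophil markers against 5.66 to 16.2 CPM. The part of either in the genotype difference was not tested.

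Dusp5 was lower in the knockout under every treatment too. Wild-type libraries spanned 3.97 to 18.1 CPM and knockout libraries 2.62 to 6.73 CPM, with no overlap under any 1 treatment. The log2 fold change was -1.61 ± 0.28 with vehicle (adjusted p = 0.000239), -1.10 ± 0.32 with IL4 (adjusted p = 0.028), -1.10 ± 0.28 with corticosterone (adjusted p = 0.0096) and -1.49 ± 0.29 with dexamethasone (adjusted p = 0.00087). The vehicle and dexamethasone calls held in all 15 alternatives each. The IL4 call was lost without wild-type IL4 1 (-0.89, adjusted p = 0.166) or 2 (-1.08, adjusted p = 0.0683) and without knockout IL4 1 (-1.05, adjusted p = 0.0708), 2 (-1.06, adjusted p = 0.0609) or 4 (-1.23, adjusted p = 0.0552), and the corticosterone call without wild-type corticosterone 1 (-0.83, adjusted p = 0.111), 0.166 and 0.111 being the maxima over their alternatives. The IL4 call was also lost with no filter on low counts and with only the groups compared (adjusted p = 0.0773 and 0.0716). Without the wild-type libraries numbered 1 the 4 values were -1.47, -0.86, -0.83 and -1.35, of which the middle pair were not called (adjusted p = 0.145 and 0.0926). In every wild-type treatment Dusp5 was highest in the library numbered 1 and lowest in that numbered 3. That is the order of the stromal marker sums (629.5 to 781, 246 to 330.5 and 149.5 to 204 CPM by number) and of the neutrophil marker sums (168 to 292, 59.7 to 112 and 42.7 to 76.1 CPM). In the knockout these sums were 10.2 to 41.9 and 5.66 to 16.2 CPM, and their part in the difference was not tested. Dusp2 had the same order by number in every wild-type treatment, yet it was not called between the genotypes under any treatment.

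Dusp1 was lower in the knockout with vehicle (-0.91 ± 0.25, adjusted p = 0.0133), corticosterone (-1.32 ± 0.25, adjusted p = 0.000887) and dexamethasone (-1.40 ± 0.25, adjusted p = 0.000463). With IL4 all knockout libraries also lay below wild type, at -0.71 ± 0.28 (adjusted p = 0.102; called at 0.045 by DESeq2 and at 0.0434 with only the groups compared, and up to 0.299 over its alternatives). The highest knockout library with dexamethasone, at 81.8 CPM, lay within the wild-type vehicle range of 61.1 to 90.7 CPM. The glucocorticoid calls held in all alternatives, among them the fits without the wild-type libraries numbered 1 (-1.31, adjusted p = 0.0107, and -1.46, adjusted p = 0.00358). The vehicle call was lost without wild-type vehicle 2 (-0.76, adjusted p = 0.0742), without knockout vehicle 3 (-0.79, adjusted p = 0.0508), without the libraries numbered 1 (-0.90, adjusted p = 0.0697) and without those high in Arg1 (-0.60, adjusted p = 0.197, the maximum over its alternatives). Within wild type the libraries numbered 2 were the highest in Dusp1 and those numbered 3 the lowest in each treatment. The stromal (149.5 to 781 against 10.2 to 41.9 CPM) and neutrophil (42.7 to 292 against 5.66 to 16.2 CPM) marker sums differed between the genotypes here too, and their part in the difference was not tested. Ergic1, which shares exonic sequence with Dusp1 on the other strand, was lower in the knockout with dexamethasone too (-0.37 ± 0.07, adjusted p = 0.000899).

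**Figure D3:**
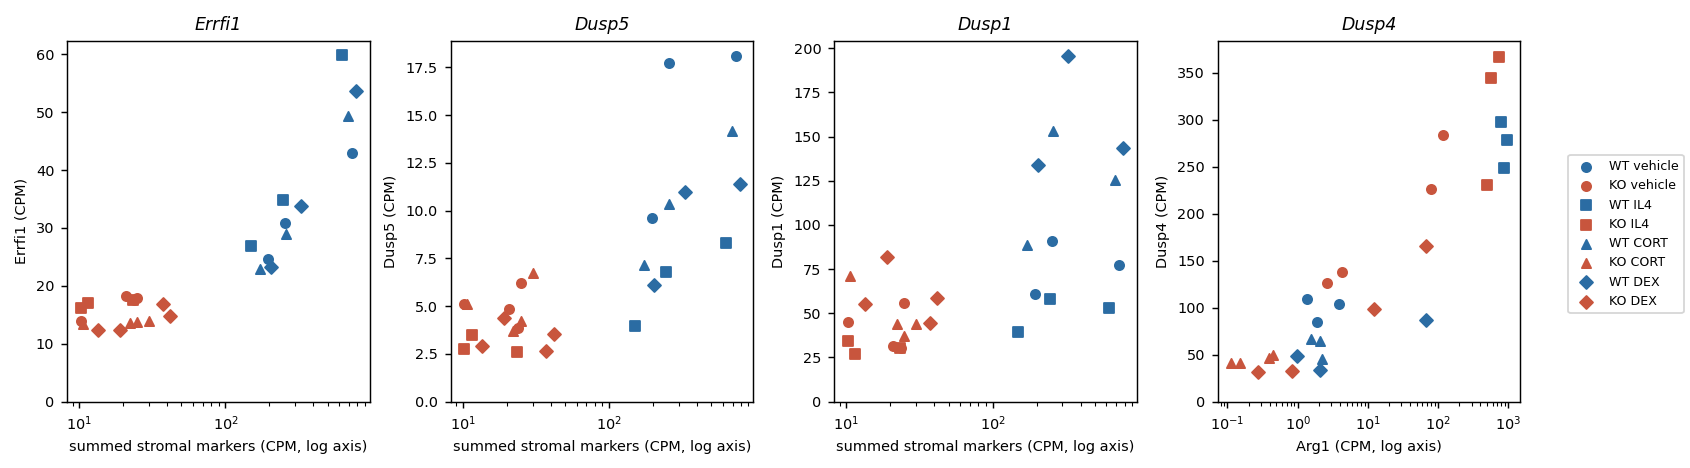
Errfi1, Dusp5 and Dusp1 in each library against the summed level of 5 stromal markers, and Dusp4 against Arg1, all in CPM with a log horizontal axis; colour is the genotype and shape the treatment. The knockout libraries sit at 10.2 to 41.9 CPM of stromal markers and the wild-type libraries at 149.5 to 781 CPM, with no overlap.

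Of the others, Dusp16 was lower in knockout vehicle cells (-0.56 ± 0.14, adjusted p = 0.00552), with 12.1 to 15.1 CPM against 16.3 to 21.0 CPM, and this call was lost without the libraries high in Arg1 (-0.49, adjusted p = 0.0699, the maximum over its 15 alternatives). Dusp6 was lower with vehicle (-0.29 ± 0.10, adjusted p = 0.0482) without overlap, at 127 to 135 CPM against 158 to 167 CPM. Each of the 7 omissions of a single library ended that call: the values were -0.27, -0.31 and -0.30 without wild-type vehicle 1, 2 and 3 and -0.29, -0.29, -0.31 and -0.31 without knockout vehicle 1, 2, 3 and 4, with adjusted p up to 0.158. Without the libraries high in Arg1 it was not called either (-0.29, adjusted p = 0.102). The call was also lost with no filter (adjusted p = 0.0528) and without the wild-type libraries numbered 1 (-0.27, adjusted p = 0.104). Dusp3 was higher with vehicle (0.20 ± 0.07, adjusted p = 0.0318), at 271 to 323 CPM against 245 to 267 CPM. It was not called without wild-type vehicle 1 (0.21, adjusted p = 0.0773) or 3 (0.17, adjusted p = 0.147), without knockout vehicle 2 (0.14, adjusted p = 0.155) or 3 (0.18, adjusted p = 0.0998), or without the libraries high in Arg1 (0.10, adjusted p = 0.448, the maximum over its alternatives). The call was also lost with no filter on low counts and with only the groups compared (adjusted p = 0.099 and 0.173). Without the wild-type libraries numbered 1 it was lost too (0.21, adjusted p = 0.0955). Dusp4 in knockout vehicle cells lay above all wild-type vehicle libraries without passing the test (0.96 ± 0.44, adjusted p = 0.148), and the value was 0.41 (adjusted p = 0.537) without the libraries high in Arg1. Dusp7 was at 0.21 ± 0.08 with vehicle (adjusted p = 0.0617; 0.32 and 0.00475 without wild-type vehicle 3, and up to 0.333 over its alternatives), and Dusp2 did not pass under any treatment, with values between -0.08 and 0.28.

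**Figure D4:**
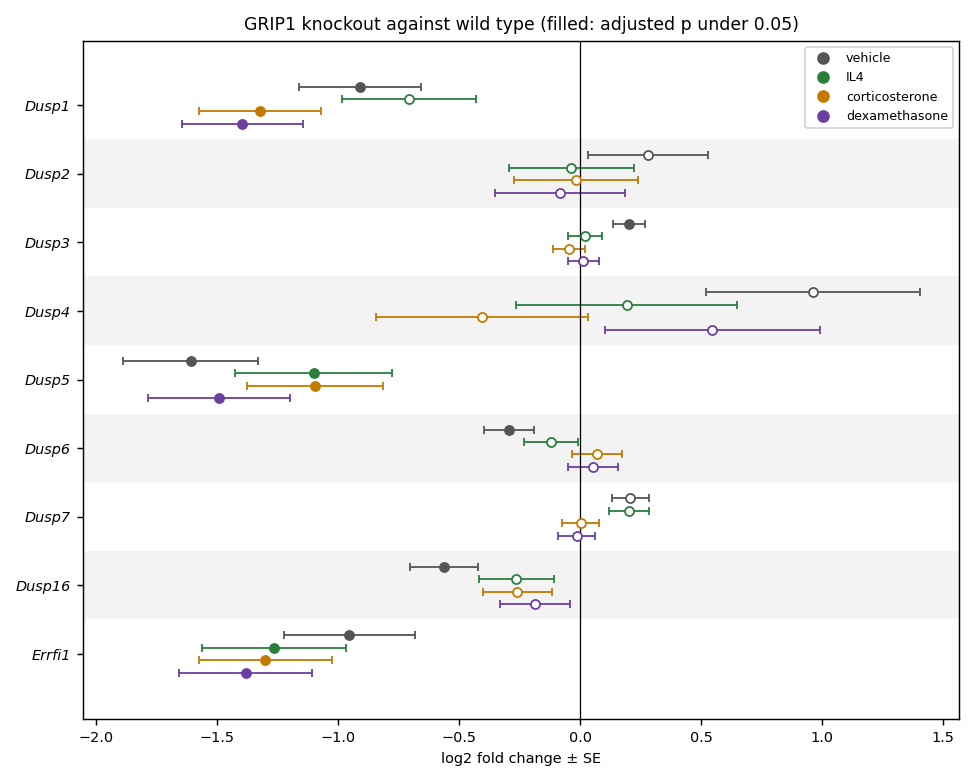
Log2 fold change of knockout against wild type with its SE for each gene under the 4 treatments, filled where the adjusted p was under 0.05. Errfi1 and Dusp5 are filled and below 0 under all 4, and Dusp1 under 3 of them.

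Whether the response to a treatment differed between genotypes was tested as an interaction, the log2 fold change in knockout minus that in wild type. No member was called for IL4 (background 0.00685% higher and 0.0206% lower), corticosterone (0.00685% and 0.0137%) or dexamethasone (0.0480% and 0.137%), in edgeR or in DESeq2. At an unadjusted p under 0.05 there were 0, 3 and 1 members. For Dusp1, whose dexamethasone response was called in wild type and not in the knockout, the difference was -0.49 (95% interval -1.23 to 0.26; adjusted p = 1), so the genotypes were not shown to differ in that response. For Dusp6 the knockout response was larger by 0.36 (0.06 to 0.66; adjusted p = 0.556) with corticosterone and 0.35 (0.05 to 0.65; adjusted p = 0.667) with dexamethasone. For Dusp4 with corticosterone the difference was -1.37 (-2.66 to -0.08; adjusted p = 0.708), and -0.82 without the libraries high in Arg1. For Dusp3 with corticosterone it was -0.25 (-0.44 to -0.06; adjusted p = 0.487). None of these 4 values passed the adjustment over all genes.

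Dexamethasone is a synthetic glucocorticoid and corticosterone the hormone mice make, and the doses were not matched (100 nM dexamethasone and 500 nM corticosterone). The next values are log2 fold changes against vehicle, with corticosterone first and dexamethasone second. Dusp1 changed by 0.68 and 1.05 in wild type and by 0.27 and 0.56 in the knockout. Dusp6 changed by 0.54 and 0.54 in wild type and by 0.90 and 0.88 in the knockout. Tested against each other, 0 members were called in wild type (background 0.151% higher and 0.0343% lower with dexamethasone) and 0 in the knockout (background 0.178% and 0.144%), by edgeR and by DESeq2. At an unadjusted p under 0.05, 1 and 2 members differed: Dusp16 in wild type (-0.37, 95% interval -0.69 to -0.06) and Dusp4 (0.88, 0.03 to 1.73) and Dusp16 (-0.30, -0.58 to -0.03) in the knockout. For Dusp6 the interval of the difference was -0.23 to 0.23 in wild type and -0.21 to 0.18 in the knockout. By contrast the glucocorticoid target Fkbp5 was 0.62 ± 0.09 higher with dexamethasone in wild type (adjusted p = 0.00229).

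The wider pathway was read through 8 lists with 114 genes, 95 of which were tested. The background beside a count is again the share of all tested genes called in that direction, and the lists were chosen with earlier results known. The ERK feedback genes (Sprouty and Spred inhibitors, ETV factors, Ier3 and Phlda1; 11 tested) held 1 that rose (background 14.8%) and 7 that fell (background 15.3%) with IL4 in wild type, with a list median of -0.63. In the knockout 2 rose (background 14.5%) and 1 fell (background 12.0%) with IL4, with a list median of -0.23, and 2 rose and 3 fell without the libraries high in Arg1. Spry2, an inhibitor of receptor signalling to ERK, fell by 1.39 ± 0.15 on the log2 scale (adjusted p = 1.09e-07) from a mean of 25.8 to 9.85 CPM, and Spred3 by 1.03 ± 0.14 (adjusted p = 4.57e-06). In wild type none of this list was called with corticosterone, except Phlda1 without the libraries numbered 1 (-1.33, adjusted p = 0.0293), and Phlda1 fell with dexamethasone (by 1.56 ± 0.39, adjusted p = 0.00763). In the knockout 2 of this list, Spry2 and Etv1, rose with corticosterone (background 6.01%) and none fell (6.07%). With dexamethasone 2 rose (9.10%) and 1 fell (9.29%) there, the called genes being Etv1, Spry2 and Phlda1. Spry2 rose in the knockout with corticosterone (0.71 ± 0.12, adjusted p = 0.000232) and dexamethasone (0.59 ± 0.12, adjusted p = 0.000927) and fell with IL4 (by 1.04 ± 0.14, adjusted p = 8.41e-06), the directions of Dusp6. Without the libraries high in Arg1 these values were 0.48, 0.46 and -1.27, all called, and Spry2 was also called with dexamethasone in wild type (0.32, adjusted p = 0.0257). Of the same list 7, 3, 5 and 5 genes were lower in the knockout than in wild type with vehicle, IL4, corticosterone and dexamethasone (backgrounds 10.3%, 6.59%, 8.95% and 10.5%), and none was higher (8.47%, 5.76%, 5.46% and 6.70%). The counts were 6 with vehicle and 2 with dexamethasone without the libraries high in Arg1, and 8, 2, 2 and 5 without the wild-type libraries numbered 1. Among these Spred3 was lower by a log2 fold change of -0.80 ± 0.13 (adjusted p = 0.00011) and Phlda1 by -1.98 ± 0.36 (adjusted p = 0.000364) with vehicle. Phlda1 was at 10.3 to 28.0, 7.28 to 20.9 and 4.06 to 14.3 CPM in wild-type libraries numbered 1, 2 and 3. It was at 1.52 to 7.44 CPM in the knockout. Spry4, lower by -3.58 ± 0.87 with corticosterone (adjusted p = 0.00632), was at 4.003 to 5.03, 1.25 to 2.32 and 0.41 to 1.13 CPM in wild-type libraries numbered 1, 2 and 3, the order of the stromal and neutrophil markers, and at 0 to 0.42 CPM in the knockout. It was at -2.53 (adjusted p = 0.0142) without the libraries numbered 1.

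The immediate early genes (13 tested), transcription factors made within minutes of MAPK signalling, split under IL4 in wild type into 5 that rose (background 14.8%) and 4 that fell (background 15.3%). Fosl2 rose by 0.96 ± 0.12 (adjusted p = 8.32e-07) and Egr2 by 4.50 ± 0.70 (adjusted p = 4.04e-05), from a mean of 8.34 to 189 CPM. No gene of this list was called with either glucocorticoid in wild type, except that Atf3 fell with dexamethasone without the libraries high in Arg1 (-0.72, adjusted p = 0.00348). In the knockout 2 fell with corticosterone (background 6.07%) and 3 with dexamethasone (background 9.29%). Egr2 was at 9.60 to 74.2 CPM in knockout vehicle libraries, a wide spread, at 2.39 to 3.39 CPM with corticosterone and at 2.14 to 13.1 CPM with dexamethasone. It fell with corticosterone by 3.84 ± 0.66 on the log2 scale (adjusted p = 0.000389), and by 2.51 (adjusted p = 0.00442) without the libraries high in Arg1. Atf3 fell with dexamethasone by 1.08 ± 0.22 (adjusted p = 0.000893), and by 1.02 (adjusted p = 9.57e-05) without them. Between genotypes, 1 was higher (background 8.47%) and 4 were lower (background 10.3%) with vehicle, and 1, 2 and 4 were lower under IL4, corticosterone and dexamethasone (backgrounds 6.59%, 8.95% and 10.5%) with none higher. Without the libraries high in Arg1 none was higher and 2 were lower with vehicle. Fosl1 was lower under each, by -3.35 ± 0.53 with vehicle (adjusted p = 0.00011), and in wild-type libraries numbered 1, 2 and 3 it was at 6.44 to 9.50, 2.96 to 5.79 and 1.59 to 4.77 CPM. The ErbB receptors and ligands (10 tested), the targets of Errfi1 and their activators, held 3, 3, 5 and 4 genes that were lower in the knockout with vehicle, IL4, corticosterone and dexamethasone (backgrounds 10.3%, 6.59%, 8.95% and 10.5%) and none that was higher. The counts were 2 with vehicle and 1 with dexamethasone without the libraries high in Arg1, and 2, 3, 3 and 2 of the 9 then tested without the wild-type libraries numbered 1. Of these Lrig1, another inhibitor of the receptors, was lower by -1.14 ± 0.24 with vehicle (adjusted p = 0.00149), a call lost without the libraries high in Arg1 (-0.87, adjusted p = 0.0546). Erbb2 was lower by -2.28 ± 0.54 (adjusted p = 0.00377), and by -1.40 (adjusted p = 0.0238) without the libraries numbered 1. Erbb2 was at 1.84 to 2.72, 0.95 to 1.62 and 0.51 to 0.89 CPM in wild-type libraries numbered 1, 2 and 3 and at 0.16 to 0.39 CPM in the knockout. The ligand gene Nrg4 rose with corticosterone (1.98 ± 0.29, adjusted p = 6.66e-05) and dexamethasone (2.57 ± 0.29, adjusted p = 5.99e-07) in wild type, from a mean of 0.61 to 2.42 and 3.65 CPM. In this list 3 rose and 1 fell with IL4 (backgrounds 14.8% and 15.3%), 2 rose with corticosterone (3.48%) and 3 rose with dexamethasone (7.66%) in wild type.

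Among the kinases (10 MAP kinases and 23 upstream MAP2K and MAP3K genes tested), Map3k6, a kinase above JNK and p38, rose with both glucocorticoids in both genotypes. In wild type the log2 fold change was 1.03 ± 0.10 with corticosterone (adjusted p = 1.41e-07) and 1.72 ± 0.10 with dexamethasone (adjusted p = 7.54e-12), from a mean of 8.78 to 17.9 and 29.0 CPM. It was also the gene of all 8 lists called between the glucocorticoids, 0.70 ± 0.10 higher with dexamethasone in wild type (adjusted p = 0.000869) and 0.61 ± 0.08 in the knockout (adjusted p = 0.000243). In wild type 6 upstream kinases rose and 4 fell with IL4 (backgrounds 14.8% and 15.3%), 1 rose with corticosterone (3.48%), and 1 rose and 2 fell with dexamethasone (7.66% and 6.03%). Mapk11, a p38 isoform, fell with IL4 by 1.43 ± 0.15 (adjusted p = 9.66e-08), with corticosterone by 0.57 ± 0.14 (adjusted p = 0.0139) and with dexamethasone by 0.55 ± 0.14 (adjusted p = 0.00961) on the log2 scale. The corticosterone call was lost without the libraries numbered 1 (-0.51, adjusted p = 0.125). Of the MAP kinases 1 rose and 2 fell with IL4 (backgrounds 14.8% and 15.3%), 1 fell with corticosterone (2.46%) and 3 fell with dexamethasone (6.03%). In the knockout 1 of the 10 MAP kinases was higher than in wild type under each treatment. The backgrounds were 8.47%, 5.76%, 5.46% and 6.70% with vehicle, IL4, corticosterone and dexamethasone. In the same order 2, 2, 3 and 2 were lower (backgrounds 10.3%, 6.59%, 8.95% and 10.5%). Mapk3, which encodes ERK1, was higher in the knockout under every treatment, from 0.21 ± 0.07 with vehicle (adjusted p = 0.036) to 0.31 ± 0.07 with IL4 (adjusted p = 0.00653). The vehicle call was lost without the libraries numbered 1 (0.18, adjusted p = 0.116) and the dexamethasone call without those high in Arg1 (0.25, adjusted p = 0.0532).

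Of the further phosphatases of MAPKs, 4 of 6 listed were tested. Ptpn7, a tyrosine phosphatase of ERK and p38, fell with corticosterone by 0.41 ± 0.08 (adjusted p = 0.00131) and with dexamethasone by 0.57 ± 0.08 (adjusted p = 1.08e-05) on the log2 scale in wild type, from a mean of 219.7 to 165 and 148 CPM, and also in the knockout (by 0.50 ± 0.07 and 0.70 ± 0.07; adjusted p = 1.36e-05 and 4.25e-08). In that list 1 of 4 fell with corticosterone (background 2.46%) and 2 of 4 with dexamethasone (6.03%) in wild type, 2 and 2 in the knockout (6.07% and 9.29%), and none rose. With IL4 in wild type 1 rose (14.8%) and 1 fell (15.3%). Of the atypical dual-specificity phosphatases (11 tested), 4 rose (background 14.8%) and none fell (15.3%) with IL4 in wild type, led by Dusp18 (0.89 ± 0.14, adjusted p = 2.86e-05). Dusp22 rose with corticosterone (0.34 ± 0.09, adjusted p = 0.0224) and dexamethasone (0.40 ± 0.09, adjusted p = 0.0028) in wild type. It was the only gene of that list called with either (backgrounds 3.48% and 7.66% higher, 2.46% and 6.03% lower). Among the MAPK-activated kinases and mRNA decay factors (13 tested), through which p38 stabilises cytokine transcripts, 3 rose (background 14.8%) and 3 fell (15.3%) with IL4 in wild type. Mapkapk3 rose with IL4 by 0.97 ± 0.08 (adjusted p = 3.08e-09). Zfp36l1, which promotes decay of AU-rich transcripts, rose with corticosterone (0.71 ± 0.14, adjusted p = 0.00218), the only gene of its list called there (background 3.48%), and with dexamethasone (0.84 ± 0.14, adjusted p = 0.000154), where 2 rose (7.66%) and 1 fell (6.03%).

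Across the 27 libraries, which share their treatments and genotypes, the log2 CPM of Dusp4 and Dusp6 ran opposite to each other (r = -0.92), as did Dusp2 and Dusp6 (r = -0.84), while Dusp2 and Dusp4 ran together (r = 0.78). Dusp5 ran with Dusp16 (r = 0.81), Errfi1 (r = 0.76) and Dusp1 (r = 0.71), which were less alike among themselves (r = 0.40 for Dusp16 and Errfi1, 0.50 for Dusp1 and Dusp16 and 0.53 for Dusp1 and Errfi1). The genes with the most similar pattern to Errfi1 over the 27 libraries were Ptgs2 (r = 0.97), Mmp2 (r = 0.97) and Adgra2 (r = 0.97). For Dusp6 they were Gas6 (r = 0.98), Stab1 (r = 0.98) and Prss16 (r = 0.97), and for Dusp4 Gatm (r = 0.97), Angptl2 (r = 0.96) and Egr2 (r = 0.96). For Dusp1 they were Slc16a9 (r = 0.92), Cpeb2 (r = 0.92) and Jag1 (r = 0.90), and for Dusp5 Rab4a (r = 0.95), Bag2 (r = 0.94) and Vegfa (r = 0.93). Dusp2 was most like Nab2 (r = 0.93), Src (r = 0.92) and Cd9 (r = 0.90), and Dusp3 most like Tbxas1 (r = 0.95), Atp6v1a (r = 0.93) and Snx1 (r = 0.93). Dusp16 was most like Sntb2 (r = 0.88), Asap3 (r = 0.85) and Pik3cb (r = 0.85). Dusp7, with Epsti1 (r = 0.82), Zmat1 (r = 0.79) and Casp4 (r = 0.78), had the lowest closest match of the 9.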

How the data were processed

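The authors deposited raw, unnormalised counts of reads for each gene, with 1 column per library (27). Library preparation, per the labels' protocols, took poly(A) RNA through the NEBNext Ultra II Directional kit, and sequencing gave 50 bp pairs. The tools named in the submitters' processing notes are fastp 0.23.2, STAR 2.7.0, featureCounts and edgeR 3.38.4, with the build mm10. No source used here gives the strand setting. Dusp1, Dusp3 and Dusp5 overlap antisense genes and are less certain for that reason.

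From the counts, genes were filtered with filterByExpr (minimum count 10), scaled by TMM and fitted in 1 model of 8 group means. Contrasts of the group means went through the quasi-likelihood F test of edgeR 4.0.16 (R 4.3.3), with Benjamini-Hochberg adjustment over 14589 genes. CPM values are counts relative to the TMM-scaled library size. SE is the size of the log2 fold change divided by the square root of F. Levels per kb used GENCODE vM21 exon lengths. The procedure was tested on simulated counts for dexamethasone against vehicle in wild type, with 200 of 14589 genes changed 2-fold. It recovered 70% of these and made 4 false calls, so a 2-fold change can go uncalled. Libraries of a group differed beyond sampling noise. The members and the gene lists were chosen with earlier results of these data known. Members are always named. Of each list up to 3 called genes with the smallest adjusted p were named per comparison, and the 3 genes with the highest r to each member.

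The labels do not say what a replicate number shares. Same-numbered libraries deviated together from their group means (r across genes over 0.1 in every pair) for the wild-type treatments (lowest 0.244, highest 0.713), for IL4 and corticosterone in the knockout (0.112 to 0.280) and for both glucocorticoid pairs, so the blocked value is given beside those results where it changed a call. Knockout dexamethasone (from 0.005) and the genotype comparisons (-0.236 to 0.034) were not paired by this rule. Alternatives were RLE scaling, no filter, DESeq2 1.42.0, another edgeR dispersion fit, only the groups compared, the block and leaving out each library, and, chosen after seeing the data, leaving out the 4 libraries high in Arg1 or the wild-type libraries numbered 1, for members and list genes.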

Additional observations from a re-analysis of the deposited data

Results flagged for a closer look

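Among 27 sets of 4 libraries of 1 gene and group, 2 held a library whose gap to the nearest other library was a large part of the group's range (Dixon's test at its 95% critical value). Chance alone gives about 1 in 20 such sets. Dusp2 in the knockout corticosterone library numbered 1 was at 5.74 CPM, and the other 3 lay between 3.39 and 3.72 CPM. Dusp16 in the knockout vehicle library numbered 1 was at 15.1 CPM, and the other 3 lay between 12.1 and 12.6 CPM.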

How the results depend on the processing

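Of 2115 alternative values of single genes, 2009 kept their direction and their side of the threshold, 71 lost a call, 35 gained one and none reversed a called direction. Counts of members called stayed within 1.5 times the main count in 99 of 112 cases. With the replicate number as a block they were 4 for corticosterone and 6 for dexamethasone in wild type, 5 for IL4, 5 for corticosterone and 7 for dexamethasone in the knockout, and 4 for knockout against wild type under IL4. In the knockout dexamethasone comparison, whose numbers did not pair the libraries, the block added Dusp1 (0.57), Dusp5 (-0.55) and Errfi1 (-0.27). In the genotype comparisons it added Dusp7 (0.21) and lost Dusp6 (-0.28) with vehicle and added Dusp1 (-0.79) and Dusp7 (0.22) under IL4, and it changed no other call than these and those in the report. With no filter on low counts, 2 members were called for dexamethasone in the knockout and 1 for knockout against wild type under IL4. With only the groups compared, 5 were called for corticosterone in the knockout. Without the 4 libraries high in Arg1, 2 were called for knockout against wild type with vehicle. Without the wild-type libraries numbered 1, 1 was called for dexamethasone in wild type, 3 for knockout against wild type with vehicle and 1 under IL4. The omissions have fewer libraries, and for the others the cause was not tested.

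With 1 library left out, counts ranged from 4 to 6 for IL4, 1 to 1 for corticosterone and 2 to 2 for dexamethasone in wild type, and from 2 to 3, 2 to 3 and 2 to 4 in the knockout. For knockout against wild type they ranged from 3 to 5 with vehicle, 0 to 2 with IL4, 2 to 3 with corticosterone and 3 to 3 with dexamethasone, and were 0 for the interactions and between the glucocorticoids. Groups of 3 or 4 libraries limit the precision, most of all for Dusp4, whose SE was 0.41 to 0.47 in the comparisons with vehicle. Over all 14589 genes the count of calls was 866 for corticosterone in wild type (486 to 1790 over the alternatives), 1996 for dexamethasone (1327 to 3225), and in the knockout 3873 for IL4 (1745 to 5219), 1762 for corticosterone (941 to 2974) and 2684 for dexamethasone (1789 to 4056). For knockout against wild type it was 2738 with vehicle (1641 to 3109), 1802 with IL4 (616 to 2041), 2102 with corticosterone (1057 to 2457) and 2512 with dexamethasone (1378 to 2966). For the interactions with IL4, corticosterone and dexamethasone it was 4 (0 to 149), 3 (0 to 110) and 27 (3 to 214), and between the glucocorticoids 27 in wild type (10 to 137) and 47 in the knockout (19 to 274). The no-filter alternative tested more genes.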
